A study of Homo sapiens with 8 samples.

Results

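The GAGE, PAGE and XAGE antigens were followed here through 10 genes of the X chromosome, namely GAGE1, GAGE2A, GAGE12J, PAGE1, PAGE2, PAGE5, XAGE1B, XAGE2, XAGE3 and XAGE5. They were taken by gene name from the 60649 gene identifiers of the expression tables. The tables hold 24 protein-coding genes of these families (13 GAGE, 6 PAGE and 5 XAGE), so that 14 further copies were read beside the 10. PolyA RNA was sequenced from the human colorectal cancer line HCT116 and from UF1hypo, a single clone of that line in which exon 4 of 1 UHRF1 allele was excised. Both lines carried a lentiviral hairpin, either a scrambled control (shScr) or a hairpin against UHRF1 (shUHRF1), as puromycin-selected stable pools. Each of the 4 groups had 2 libraries and there were 8 in all. The study harvested such pools on either of a pair of days, and which day applies to these libraries is not given in the sources used here. Whether the 2 libraries of a group came from separate infections is not given either, so p-values measure only the spread between these libraries, which may be technical. All UF1hypo values come from that 1 clone.

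These genes encode small cancer-testis antigens, proteins made in germ cells of the testis and in some tumors but in few healthy adult tissues. They lie as tandem copies on the X chromosome, and DNA methylation of their promoters is a known part of their silencing in somatic cells. UHRF1 binds hemimethylated DNA behind the replication fork and brings DNMT1, the maintenance DNA methyltransferase, to it.

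The 10 genes lie in 3 stretches of the X chromosome (GRCh38). GAGE12J (49322057 to 49329384), GAGE2A (49589529 to 49596827) and GAGE1 (49599025 to 49608536), all on the plus strand, share the first stretch with PAGE1 (49687447 to 49695984, minus strand). XAGE2 (52369021 to 52375680, plus strand), XAGE1B (52512077 to 52520803, minus strand), XAGE5 (52811287 to 52818301, plus strand) and XAGE3 (52862525 to 52868083, minus strand) form the second. PAGE2 (55089018 to 55092842) and PAGE5 (55220346 to 55224108), on the plus strand, form the third. Each is annotated as a protein-coding gene.

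The sequence before the transcription start is shown for 4 of the genes, because methylated CpG dinucleotides of such sequence are what UHRF1 and DNMT1 maintain. The 250 bases come from RefSeq (GRCh38.p14) on the strand of the gene, with CpG in capitals. GAGE2A and PAGE1 had the highest levels below, PAGE5 stands for the third stretch, and XAGE2 is the member that lacks the 8-letter word described next.
GAGE2A (chrX:49589246-49589495, plus strand): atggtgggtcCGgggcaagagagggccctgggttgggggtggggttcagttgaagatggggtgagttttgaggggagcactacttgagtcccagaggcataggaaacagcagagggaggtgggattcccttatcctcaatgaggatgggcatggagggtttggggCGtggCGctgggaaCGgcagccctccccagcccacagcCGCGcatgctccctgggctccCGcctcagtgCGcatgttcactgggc
PAGE1 (chrX:49695985-49696234, minus strand): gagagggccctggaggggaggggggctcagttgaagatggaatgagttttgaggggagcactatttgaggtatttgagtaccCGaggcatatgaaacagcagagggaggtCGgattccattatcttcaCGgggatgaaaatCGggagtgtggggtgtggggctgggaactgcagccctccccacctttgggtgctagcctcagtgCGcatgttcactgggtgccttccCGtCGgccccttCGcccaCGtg
PAGE5 (chrX:55220096-55220345, plus strand): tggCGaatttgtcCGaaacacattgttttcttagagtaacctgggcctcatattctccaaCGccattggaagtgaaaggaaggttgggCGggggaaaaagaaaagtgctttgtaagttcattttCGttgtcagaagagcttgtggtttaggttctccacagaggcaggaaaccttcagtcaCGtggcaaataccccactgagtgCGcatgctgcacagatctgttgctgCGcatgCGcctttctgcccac
XAGE2 (chrX:52368771-52369020, plus strand): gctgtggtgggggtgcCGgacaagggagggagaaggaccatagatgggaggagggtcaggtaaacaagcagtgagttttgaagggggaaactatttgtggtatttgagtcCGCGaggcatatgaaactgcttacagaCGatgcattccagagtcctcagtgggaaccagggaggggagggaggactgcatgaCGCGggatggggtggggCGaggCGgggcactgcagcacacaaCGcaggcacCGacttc
The 250 bases of GAGE2A were identical to those of GAGE12J and of 6 further GAGE copies. They were 94.6% identical to those of GAGE1 and 68.0% to those of PAGE1, while PAGE5 shared 49.5% with GAGE2A, all by global alignment. All 10 members had fewer CpG than the median promoter, with 5 CpG in XAGE5, 8 in each GAGE member, 9 in PAGE1 and in PAGE5, 10 in XAGE2, 11 in PAGE2, 12 in XAGE3 and 14 in XAGE1B. The median was 9, against 17 over the promoters of 15191 protein-coding genes. Over 693 promoters on the X chromosome the median was 13, which XAGE1B exceeded. The RefSeq start used for XAGE1B lies inside the span annotated for that gene.

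Before the start, 9 of the 10 members held the word TGCGCATG, which is part of the sequence that the transcription factor NRF1 binds. The word was picked after these sequences had been read, and the copies share sequence. The 30-base windows below show it in capitals, on the strand of each gene, for 1 occurrence per gene; XAGE1B, XAGE5 and PAGE5 held it 2 times.
GAGE2A: ctcccgcctcagTGCGCATGttcactgggc
GAGE1: ccctgggctcccgcctcagTGCGCATGttc
PAGE1: gctagcctcagTGCGCATGttcactgggtg
PAGE2: accccactcagTGCGCATGctgcacagacc
PAGE5: agatctgttgcTGCGCATGcgcctttctgc
XAGE1B: gcccacctcagTGCGCATGttcactgggcg
XAGE3: accgacctcacTGCGCATGtccactgggtg
XAGE5: tgcctccttagTGCGCATGttcattgggca
Searched on both strands, the word occurred in 2.42% of all promoters and in 4.76% of those on the X chromosome. The GC box GGGCGG was in 3 of the 10 members and in 56.8% of all promoters, the E-box CACGTG in 3 of 10 and in 7.85%, and the TATA box TATAAA in 0 of 10 and in 9.18%. None of these words contains another. These matches describe letters only and say nothing about binding.

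The targeted gene was read first. UHRF1 was at 87.5 and 98.4 TPM (transcript abundance scaled for length and library size) in HCT116 shScr and at 31.7 and 32.7 in HCT116 shUHRF1. The UF1hypo libraries gave 47.3 and 50.6 with shScr, then 34.1 and 21.1 with shUHRF1. UHRF1 was lower in every shUHRF1 library than in the shScr libraries of its line, and the UF1hypo shUHRF1 libraries lay on either side of the HCT116 shUHRF1 libraries. On the log2(TPM + 1) scale the change was -1.50 (SE 0.222, adjusted p = 0.0564) in HCT116 and -0.84 (SE 0.221, adjusted p = 0.0406) in UF1hypo by limma. Neither was called, since a call needed an adjusted p under 0.05 and a log2 change beyond 1. In HCT116, UHRF1 was called lower in 7 of 21 alternatives. In UF1hypo the change was -1.17 and called without shUHRF1 replicate 1 (adjusted p = 0.00200) and -0.51 without replicate 2, and it was called in 1 of 21 alternatives. Gene-level TPM does not tell the excised allele from the intact one.

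Aligned depth was 5.42 to 7.84 gigabases per library. Of 9 epithelial markers, 7 were above 1 TPM in both libraries of every group, while VIL1 and LGALS4 stayed below 1 TPM. In HCT116 the 9 summed to between 4613 and 4687 TPM with shScr and between 5678 and 5801 with shUHRF1. UF1hypo cells were already higher with shScr, between 9084 and 9359 TPM, and lay between 10177 and 13041 with shUHRF1. For EPCAM, UF1hypo cells gave 357 and 327 TPM with shScr, then 174 and 314 with shUHRF1. Leukocyte markers (6 genes) summed to at most 3.88 TPM. Fibroblast markers (6 genes) summed to between 21.2 and 28.9 TPM in the other groups and between 38.3 and 66.2 in UF1hypo shUHRF1, nearly all from COL1A1, with LUM at 0 in both libraries of every group. Germ cells are a normal site of cancer-testis antigens. Their markers (10 genes) summed to between 0.406 and 1.87 TPM in the other 6 libraries. In UF1hypo shUHRF1 these markers summed to 10.1 and 11.3 TPM. There 5 of the 10 (DDX4, SYCP1, PRM1, PRM2 and TNP1) were listed at 0 in both libraries, and 2 of the 10, MAEL and TEX101, were above 1 TPM in both. DAZL was at 0.208 and 0.349 TPM in UF1hypo shUHRF1 and listed at 0 in the other 6 libraries. The part of the germ cell, epithelial and fibroblast shifts in the results below was not tested.

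The 10 members together reached at most 3.59 TPM in 6 libraries and were abundant in UF1hypo shUHRF1. Their summed TPM, which depends less than single genes on how reads were divided among copies, was 0.626 and 0 in HCT116 shScr and 3.59 and 3.39 in HCT116 shUHRF1. In UF1hypo the sum was 1.08 and 0.457 with shScr but 199 and 165 with shUHRF1, a mean of 182 ± 23.9 (SD, n = 2). All 24 family genes summed to 228 and 188 there. The UF1hypo shUHRF1 mean was 52.2 times the HCT116 shUHRF1 mean, and between 46.1 and 58.7 times over the pairings of single libraries. UHRF1 RNA overlapped between these groups, but RNA does not measure UHRF1 protein. In the paper, that protein was lower in UF1hypo than in HCT116, and knockdown reduced it further. The part of UHRF1 level in the gap was not tested. In bulk RNA, more cells with these transcripts and more transcripts per cell cannot be told apart.

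**Figure D1:**
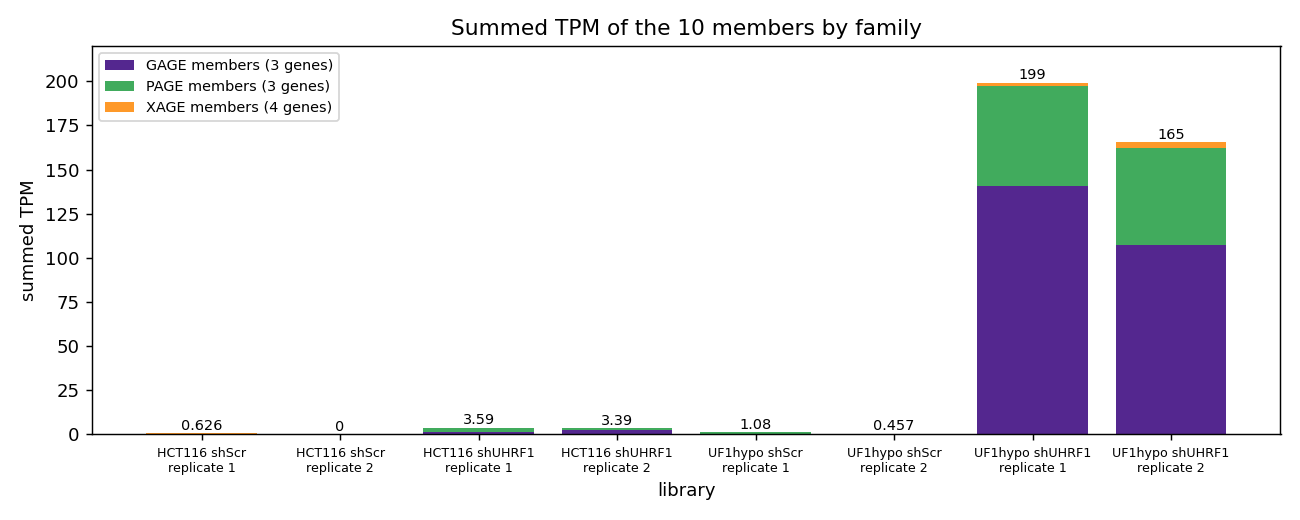
Summed TPM (vertical axis, linear from 0) of the 10 members in each of the 8 libraries, stacked by family. The UF1hypo shUHRF1 bars reach 199 and 165 TPM, while no other library passes 3.59.

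GAGE and PAGE genes carried nearly all of this signal. In UF1hypo shUHRF1 the GAGE members summed to 140 and 107 TPM, the PAGE members to 56.9 and 54.5, and the XAGE members to 1.90 and 3.46. GAGE2A alone gave 63.2% and 57.8% of the summed TPM, and PAGE1 gave 21.2% and 27.0%. Without GAGE2A the sum was 73.3 and 69.9 TPM, still above every library of the other groups. In HCT116 shUHRF1 the GAGE members summed to 1.47 and 2.31 TPM, the PAGE members to 2.12 and 1.09, and the XAGE members were all listed at 0.

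Knockdown of UHRF1 in UF1hypo asked what further UHRF1 loss does in cells that start from a lower level. Here every member was above 0 in both shUHRF1 libraries and above both shScr libraries, and 8 of the 10 were listed at 0 in both shScr libraries. Of the 10 members, 7 passed the filter of 1 TPM and 6 were called higher, where 7.39% of the 13620 genes tested were called higher. Over all genes 1007 were called higher and 155 lower, and 681 and 289 with quantile normalization. The members passed that filter mostly through the group in which they are high, so the count is a description. Where a group is listed at 0, the log2 change depends on the pseudocount of 1 and is no bound, and no ratio of TPM is given.

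GAGE proteins are short, acidic and largely disordered proteins first found as targets of T cells against melanoma. GAGE2A was at 126 and 95.5 TPM in UF1hypo shUHRF1 and listed at 0 in both UF1hypo shScr libraries. In the shUHRF1 libraries it ranked above 92.6% and 90.6% of protein-coding genes. Its log2 change of 6.79 (SE 0.212, adjusted p = 2.22e-06, limma) was the 4th largest rise of all genes tested, and it was 10.10 with a pseudocount of 0.1.

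GAGE12J, a near copy of GAGE2A, was at 13.9 and 10.1 TPM and listed at 0 in both shScr libraries. It rose by 3.68 on the log2 scale (SE 0.320, adjusted p = 0.000215, limma). GAGE1 was much lower, at 0.671 and 1.85 TPM against 0 and 0.0269, and so differed between the shUHRF1 libraries more than the other GAGE members did. GAGE1 was called higher by 1.11 (SE 0.260, adjusted p = 0.0268, limma), a call that was lost in 9 of 18 alternatives, among them the 4 UF1hypo libraries alone (adjusted p = 0.152) and the removal of either UF1hypo shScr library or of any 1 HCT116 library. Without UF1hypo shUHRF1 replicate 2, GAGE1 did not pass 1 TPM and was not tested.

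PAGE1, an antigen named for its relation to the GAGE family, was at 42.2 and 44.7 TPM with shUHRF1 and listed at 0 in both shScr libraries. These were the closest pair of libraries among the members above 2 TPM. PAGE1 rose by 5.47 on the log2 scale (SE 0.235, adjusted p = 5.45e-06, limma), and no other gene shares a 75-base stretch of its transcript. PAGE5 was at 13.4 and 8.17 TPM and listed at 0 in all 6 other libraries, with a rise of 3.52 (SE 0.243, adjusted p = 6.04e-05).

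PAGE2 differed from the other PAGE members in that UF1hypo shScr cells already had it, at 1.08 and 0.430 TPM. With shUHRF1 it was at 1.29 and 1.64 TPM, so the groups did not overlap but lay close. The log2 difference of 0.51 (SE 0.230, adjusted p = 0.194, limma) was not called. It was 0.78 without UF1hypo shScr replicate 1, 0.24 without replicate 2 and 0.06 with quantile normalization, and was called in none of these.

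The XAGE members, from a family described in Ewing sarcoma and lung cancer among other tumors, stayed low. XAGE5 was at 0.818 and 1.66 TPM against 0 in both shScr libraries and was called higher by 1.14 (SE 0.224, adjusted p = 0.0125, limma). That call was lost in 5 of 18 alternatives, among them the 4 UF1hypo libraries alone (adjusted p = 0.108) and without UF1hypo shScr replicate 1 (0.0837) or 2 (0.0721). Without UF1hypo shUHRF1 replicate 2, XAGE5 too did not pass 1 TPM.

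XAGE2 was at 0.518 and 0.931 TPM, XAGE1B at 0.282 and 0.708, and XAGE3 at 0.277 and 0.161, each against 0 in both shScr libraries. None passed 1 TPM, so none was tested. XAGE3 was also the 1 member listed above 0 in HCT116 shScr, at 0.626 TPM in replicate 1 and 0 in replicate 2, a level higher than in either UF1hypo shUHRF1 library. With no TPM filter, XAGE2 differed by 0.78 (adjusted p = 0.00717, limma), XAGE1B by 0.57 (0.0356) and XAGE3 by 0.28 (0.436), each below the log2 change of 1 that a call needed.

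**Figure D2:**
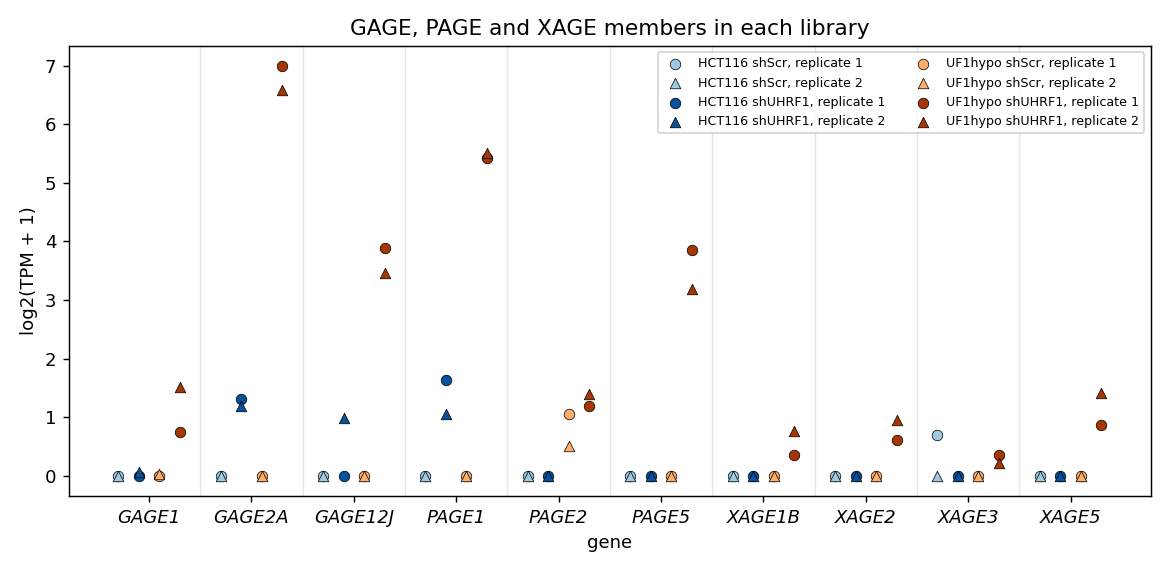
log2(TPM + 1) of each of the 10 members (horizontal axis) in every library, coloured by group, with circles for replicate 1 and triangles for replicate 2. GAGE2A, PAGE1, GAGE12J and PAGE5 stand above all other libraries in UF1hypo shUHRF1, while PAGE2 is also seen in UF1hypo shScr and XAGE3 in 1 HCT116 shScr library.

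Ordered by mean level in UF1hypo shUHRF1, GAGE2A (111 ± 21.5 TPM, SD, n = 2) came before PAGE1 (43.4 ± 1.79), and their libraries did not overlap. GAGE12J (12.0 ± 2.69) and PAGE5 (10.8 ± 3.73) came next and did overlap. PAGE2 (1.46 ± 0.248), GAGE1 (1.26 ± 0.833), XAGE5 (1.24 ± 0.597) and XAGE2 (0.724 ± 0.292) each overlapped the next in order. XAGE1B (0.495 ± 0.301) overlapped XAGE2, and its lower library (0.282) barely cleared the higher one of XAGE3 (0.219 ± 0.0819), which was at 0.277.

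Of the other 14 copies, 3 passed 1 TPM. GAGE10 was at 10.8 and 11.4 TPM and GAGE12H at 14.6 and 7.30 TPM in UF1hypo shUHRF1, both listed at 0 in the 6 other libraries. PAGE2B, like PAGE2, was present in UF1hypo shScr (0.483 and 0.528 TPM) and rose to 2.65 and 2.38 TPM. These 3 were called higher, by 3.60, 3.51 and 1.22 on the log2 scale (adjusted p = 1.14e-05, 0.000153 and 0.0132, limma). With the members, 10 of the 24 family genes were tested and 9 called higher, where 7.39% of the 13620 genes tested were. The family genes passed the filter mostly through the group in which they are high, so this count is a description. The call of PAGE2B was lost in 7 of 21 alternatives, among them the 4 UF1hypo libraries alone (adjusted p = 0.0590) and without UF1hypo shScr replicate 1 (0.0918) or 2 (0.0706), and with FPKM its change was 0.76. Of the remaining 11, 4 were above 0 without passing 1 TPM and 7 were listed at 0 in every library, namely PAGE3 and 6 GAGE copies.

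The GAGE copies are nearly the same sequence, which limits what a level per copy means. Of the 75-base windows of the GAGE2A transcript, 27.9% occurred in no other gene, against 15.4% for GAGE12J and for GAGE12H, 69.6% for GAGE10 and 87.1% for GAGE1. In 6 GAGE copies no window was unique, and 5 of these were listed at 0 in both UF1hypo shUHRF1 libraries. Of the 7 GAGE copies with a unique window, 5 had a mean above 1 TPM. The part of read assignment in these zeros was not tested. XAGE1B shares its whole transcript with XAGE1A, so that these levels cannot be told apart either, while PAGE1, XAGE2, XAGE3 and XAGE5 were fully unique. Over all 13 GAGE genes the sum was 166 and 126 TPM in UF1hypo shUHRF1, 0 and 0.0269 in UF1hypo shScr and 0 in HCT116 shScr. With each family summed before the fit, the log2 change in UF1hypo was 7.17 (SE 0.234) for GAGE, 4.74 (SE 0.219) for PAGE and 1.89 (SE 0.281) for XAGE.

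**Figure D3:**
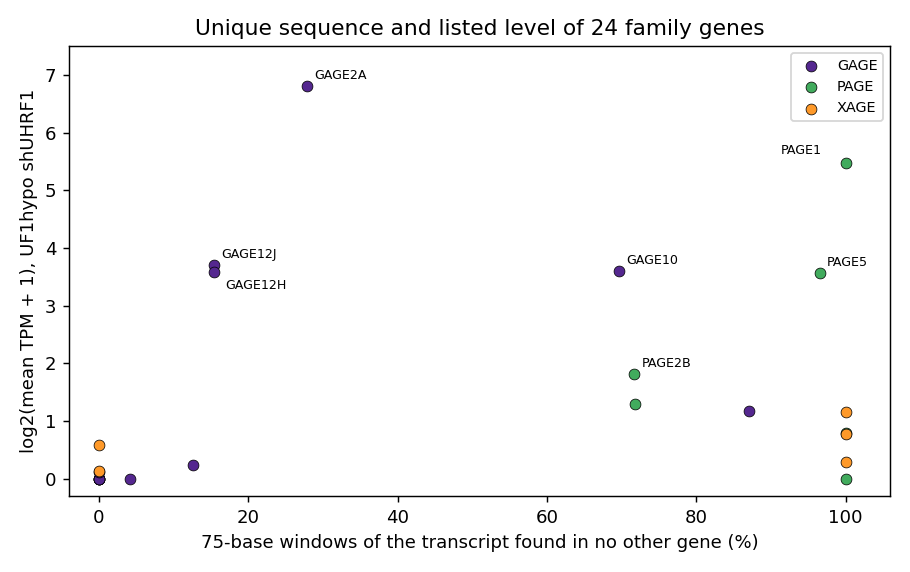
Mean level in UF1hypo shUHRF1, as log2(mean TPM + 1), against the percentage of 75-base transcript windows found in no other gene, for 24 family genes. GAGE copies at 0% lie at or near 0, and levels at 100% range from PAGE3 at 0 to PAGE1 at 43.4 TPM.

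Knockdown of UHRF1 in HCT116 asked the same question in cells that start from the full level. Only GAGE2A and PAGE1 were above 0 in both HCT116 shUHRF1 libraries, and 6 members were listed at 0 in both. GAGE2A was at 1.47 and 1.28 TPM and PAGE1 at 2.12 and 1.09 TPM, each against 0 in both shScr libraries. GAGE12J was at 0.981 TPM in replicate 2 alone and GAGE1 at 0.0470 TPM in the same library.

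In HCT116, 0 of the 10 members were called and 2 were tested, where 0.0472% of 12704 genes were called higher. With each family summed before the fit, the log2 change in HCT116 was 1.51 (SE 0.242) for GAGE and 1.46 (SE 0.228) for PAGE. By limma, the log2 difference was 1.25 for GAGE2A (SE 0.224, adjusted p = 0.113, unadjusted p = 0.000385). For PAGE1 it was 1.35 (SE 0.249, adjusted p = 0.115, unadjusted p = 0.000454). In that fit all 8 libraries shared an estimate of the spread. With the 4 HCT116 libraries alone, PAGE1 was called (adjusted p = 0.0461, limma) and GAGE2A was not (0.0510). Both were called with a pseudocount of 0.1, with library weights, with a correction for GC content and length, and without either UF1hypo shUHRF1 library. Without UF1hypo shUHRF1 replicate 1 the adjusted p was 0.0132 for GAGE2A and 0.0163 for PAGE1, and without replicate 2 it was 0.0121 and 0.0159.

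The effects of the hairpin in the lines were then compared directly. Of the 10 members, 7 were tested and 4 were called for a larger rise in UF1hypo, where 4.54% of 13781 genes were called higher. The members passed the filter mostly through the group in which they are high, so this count too is a description. The difference was 5.54 for GAGE2A (SE 0.300, adjusted p = 0.000116, limma) and 4.12 for PAGE1 (SE 0.332, adjusted p = 0.000429). For PAGE5 it was 3.52 (SE 0.344, adjusted p = 0.00109) and for GAGE12J 3.19 (SE 0.453, adjusted p = 0.00716). The difference of GAGE12J was not called with a pseudocount of 0.1 (adjusted p = 0.0864). XAGE5 (1.14, adjusted p = 0.0882), GAGE1 (1.07, adjusted p = 0.157) and PAGE2 (0.51, adjusted p = 0.472) were tested and not called. Without UF1hypo shUHRF1 replicate 1, XAGE5 (adjusted p = 0.00702) and GAGE1 (0.00684) were called, both higher in replicate 2 than in replicate 1.

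**Figure D4:**
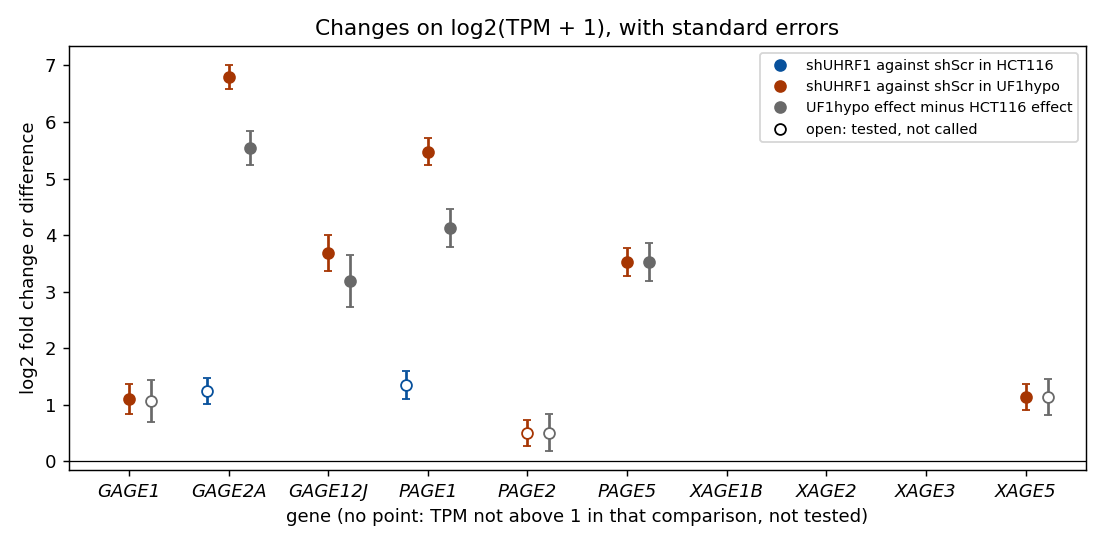
Log2 change or difference on log2(TPM + 1), with its standard error, for each member in the HCT116 knockdown (blue), the UF1hypo knockdown (brown) and the difference of these effects (grey). Open circles were tested and not called, and GAGE2A has the largest change in UF1hypo (6.79) and the largest difference (5.54).

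UF1hypo shScr and HCT116 shScr were compared to see what the clone had before knockdown. PAGE2 was at 1.08 and 0.430 TPM in UF1hypo shScr and listed at 0 in both HCT116 shScr libraries. It was the only member tested, and 0 of the 10 were called, where 2.59% of 12856 genes were called higher. Its log2 difference was 0.79 (SE 0.261, adjusted p = 0.145, unadjusted p = 0.0150, limma). GAGE1 was the only other member above 0 in UF1hypo shScr, at 0.0269 TPM in replicate 2. With all PAGE genes summed before the fit, the log2 difference was 1.08 (SE 0.227). That sum includes PAGE2B, at 0.483 and 0.528 TPM in UF1hypo shScr and listed at 0 in both HCT116 shScr libraries. This comparison and the UF1hypo knockdown share the UF1hypo shScr libraries.

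Other cancer-testis families of the X chromosome were counted in the same way. Among 72 such genes, 20 were tested in the UF1hypo knockdown and 17 were called higher, with a median log2 change of 2.97. In HCT116, 1 of 7 tested was called higher, where 0.0472% of 12704 genes were. Between UF1hypo shScr and HCT116 shScr, 6 of 11 tested were called higher, with a median of 1.04, where 2.59% of 12856 genes were. Most of the 72 were not tested. As with the members, those tested could pass the filter through the group where they are high, so these counts are descriptions. Of the other genes of the X chromosome, 427 were tested in the UF1hypo knockdown and 39 were called higher (9.13%), with a median of -0.000248, beside 7.39% and a median of 0.04 over all genes. Over the 8 libraries the genes outside these families closest to the summed level, by root mean square difference on the log2(TPM + 1) scale, were MAGEA4 (0.653), CTAG2 (0.789), SAP25 (0.797), MAGEA1 (0.942) and PSMB8 (0.972). MAGEA4, MAGEA1 and CTAG2 encode cancer-testis antigens of the X chromosome, PSMB8 (chromosome 6) encodes a subunit of the immunoproteasome and SAP25 lies on chromosome 7. MAGEA4 was at 206 and 227 TPM in UF1hypo shUHRF1 and at 1.01 and 1.91 in UF1hypo shScr.

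Of the 6 genes beside the 3 stretches, MAGEH1 was called higher and the others were not called or not tested. PPP1R3F, 20.6 kb before the first stretch, was at 1.34 and 1.11 TPM in UF1hypo shUHRF1 against 1.07 and 0.729 (log2 difference 0.23, adjusted p = 0.630, limma). USP27X, 183.5 kb after it, was at 6.96 and 6.69 TPM against 5.03 and 6.23 (0.24, adjusted p = 0.507). MAGED4, FAM156B and ALAS2 did not pass 1 TPM and were not tested. MAGEH1, 228 kb after the third stretch and a member of the MAGE family, was at 2.83 and 2.65 TPM against 0 in both shScr libraries and rose by 1.90 (SE 0.182, adjusted p = 0.000383, limma).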

How the data were processed

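RNA-seq was made from polyA RNA of 8 libraries. Per the labels and the study's methods, the authors trimmed reads (Fastp), mapped these to GRCh38 (HISAT2 2.0.4) and quantified genes with StringTie 2.1.4. The deposited tables give TPM, FPKM and coverage (a signal) per gene, and no counts. TPM was the main measure, FPKM was an alternative, and aligned gigabases were taken from the ratio of coverage to FPKM. The depth behind a single gene was not recovered as reads, so no counting interval was formed, and an exact 0 can be a failed estimate.

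Identifiers were matched to GENCODE (60507 of 60649), protein-coding genes (19960) were kept, and rows of 1 identifier were summed. log2(TPM + 1) of all 8 libraries entered limma 3.58.1 (R 4.3.3) with a variance trend over 4 groups, leaving 4 residual degrees of freedom. Genes above 1 TPM in any library of a comparison were tested, with Benjamini-Hochberg adjustment over all of them. A gene was called at an adjusted p under 0.05 and a log2 change beyond 1. An exact permutation test of 2 against 2 libraries cannot go below 0.33, so none was used. On simulated data for the UF1hypo knockdown (13002 genes), the fit called 93 of 100 genes changed by 3 on the log2 scale and 74 of 100 changed by 1.5, with 6 false calls. The changed genes were drawn from those with a mean above 1 TPM over all 8 libraries, which GAGE1 and XAGE5 did not reach. These rates do not describe calls of such low genes. The DESeq2 test of the study needs counts and was not run.

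The members and lists were chosen with earlier results of these data known. The text names the 10 members, UHRF1, family genes above 1 TPM, the 5 nearest patterns and the nearest neighbours of each stretch, and 7 copies at 0 and the marker genes were named besides. Sequences came from RefSeq promoters (22 of 24 family genes) and GENCODE transcripts, aligned with Biopython 1.88. GENCODE may differ from the annotation behind the tables. Figures were drawn in matplotlib 3.10.9.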

Additional observations from a re-analysis of the deposited data

Results flagged for a closer look

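By the limma test of the difference between the lines, 10 of the 24 family genes were tested and 6 were called. Over all 13781 genes tested, 4.54% were called higher. The family genes passed the filter mostly through the group in which they are high, so the count is a description. Every value is on the log2(TPM + 1) scale and given as UF1hypo minus HCT116. Among the members the difference was 5.54 for GAGE2A, 4.12 for PAGE1, 3.52 for PAGE5 and 3.19 for GAGE12J. Among the other copies it was 3.60 for GAGE10 (adjusted p = 0.000221) and 3.51 for GAGE12H (adjusted p = 0.00251). All were higher in both UF1hypo shUHRF1 libraries than in any other library. Levels of GAGE2A, GAGE12J, GAGE10 and GAGE12H share sequence and are not independent of each other. With 2 libraries in a group, single libraries could not be tested as outliers.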

How the results depend on the processing

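In the UF1hypo knockdown the count of members called was 4 to 6 under every alternative, that of all family genes called was 6 to 9, and GAGE2A, GAGE12J, PAGE1 and PAGE5 were called in all 21. For the difference between the lines it was 3 to 6, and 0 members were called between the shScr groups throughout. In the HCT116 knockdown the count moved from 0 to 2 with a pseudocount of 0.1, 1 with the 4 libraries alone, 2 with library weights and 2 with the GC and length correction, and from 0 to 2 when single libraries were left out. Leaving out either UF1hypo shUHRF1 library gave 2. No value changed sign. The summed level of the members in UF1hypo shUHRF1 was 177 TPM with median-ratio scaling and 165 to 199 with 1 library left out. Sums of FPKM were not formed.

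Totals over all genes moved more. Genes called higher in UF1hypo went from 1007 to 476 with library weights, 516 with the 4 libraries alone, 614 with FPKM and 591 without UF1hypo shScr replicate 1, and 1007 higher and 155 lower became 1394 and 861 without UF1hypo shUHRF1 replicate 2, and quantile normalization moved the median change of all genes from 0.04 to -0.06. In HCT116 6 became 63 with library weights, 48 with the GC and length correction, 51 with the 4 libraries alone, 19 with a pseudocount of 0.1, 2 with no TPM filter or with median-ratio scaling, 0 with any 1 HCT116 library left out and 63 without UF1hypo shUHRF1 replicate 2. For the difference, 625 higher and 77 lower became 357 and 112 with quantile normalization and 776 and 280 with the GC and length correction. The count of 625 became 388 with a pseudocount of 0.1, 370 with library weights and 153 to 1385 with 1 library left out, where 757 were called lower without UF1hypo shUHRF1 replicate 2 against 77. Between the shScr groups, 333 became 122 to 432 with 1 library left out.

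Replicate numbers did not pair the libraries, with correlations of deviations between groups of -0.402 to 0.0547 over 6 pairs. With the replicate number as a block, 971 genes were called higher and 139 lower in UF1hypo, against 1007 and 155. In HCT116 the block took 6 higher and 3 lower to 1 and 0, and for the difference it took 625 and 77 to 426 and 45. With it, 6 members were called in UF1hypo, 0 in HCT116 and 4 for the difference.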
